A study of Mus musculus with 24 samples.

Results

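Mammary glands of C57 mice on lactation day 14 were compared with glands on lactation day 8, to describe how the transcriptome moves from early to peak lactation. The comparison used 6 of the 24 samples of the series, 3 mice a day, chosen from the sample titles, which give the strain (BL/6 C57), the day and a mouse number from 1 to 3. No treatment or allele is named for these mice, and the sources used here do not state their age or litter size. The name of the deposited table refers to the first pregnancy. The remaining samples are C57 glands on day 21 and without lactation, and the same 4 stages in a second genotype labelled BL/6 NZB. Polyadenylated RNA of frozen inguinal glands was sequenced. In such bulk samples fewer cells of a type and less RNA per cell cannot be told apart.

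In lactation, secretory epithelial cells of the alveoli make caseins, whey proteins, lactose and milk fat under the control of prolactin, which acts through STAT5. Myoepithelial cells around the alveoli contract to eject milk, and plasma cells in the gland release antibody that the epithelium carries into milk. Milk output of mice rises after birth to a peak and declines toward weaning, and the composition of milk changes as the pups grow.

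In units of 1000000 reads, the 6 glands held 18.54 to 22.12 assigned reads each. Milk protein genes took most of them, which is the defining mark of a lactating gland, and markers of luminal, myoepithelial, adipocyte, fibroblast, endothelial and immune cells were all read. Day 14 mouse 1 stood apart from the other 5 glands in several markers of other cells. The summed level of 13 B cell markers was 132 there and 20.5 to 33.6 in the others, in CPM (counts for every 1000000 assigned reads) with the milk protein genes left out of the total. The sum of 18 T and NK cell markers was 116 against 25.8 to 35.1. That of 16 skeletal muscle markers was 88.9 against 38.1 to 44.1 (Tnnc2 at 0 in all 6). That of 12 neutrophil markers was 105 against 31.2 to 49.7 (Retnlg at 0 in all 6). Of that 105, S100a8 alone gave 57.5, against 0 to 6.56 in the other glands, and 7 of the 12 neutrophil markers were not tested. The sum of 21 white adipocyte markers was 2272 against 1078 to 1609. Results that were lost without this mouse, or without any other, are named below.

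Milk protein genes kept most of the transcriptome on both days, but the mix of milk protein transcripts differed. Values of these genes are in CPM of all assigned reads. The 19 genes held 70.9%, 75.3% and 75.6% of all counts in day 8 mice 1 to 3, and 64.5%, 76.1% and 71.0% in day 14 mice 1 to 3. The mean was 73.9% ± 2.67 on day 8 and 70.5% ± 5.82 on day 14 (SD, n = 3 mice each), and the days overlapped. The difference of −3.43 percentage points gave an exact permutation p of 0.7 (2-sided), where 3 against 3 mice allow no p below 0.1. Without day 14 mouse 1 the difference was −0.40 points.

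Of the 19 milk protein genes, 2 rose and 1 fell, with a median log2 difference of 0.06. The test was limma across all genes with Benjamini-Hochberg adjustment at a threshold of 0.05, on log2(CPM + 1), and differences are given with the SE of that fit. Across all 16162 genes tested on this scale, 106 (0.656%) rose and 34 (0.21%) fell, and the median difference of all genes was 0.21. Prol1, a proline-rich secreted protein (chromosome 5, 88317312 to 88328814, GRCm38), stood at 10.4, 6.57 and 4.68 CPM on day 8 and at 129, 56.4 and 84.2 CPM on day 14. All day 14 mice were above all day 8 mice, and the log2 difference was 3.45 (SE 0.54, limma adjusted p = 0.0017). Spp1, which encodes osteopontin (chromosome 5, 104435118 to 104441050), stood at 635, 65.0 and 66.4 CPM on day 8 and at 15.7, 1.34 and 1.95 CPM on day 14. Mouse 1 was the highest on both days and the days did not overlap (log2 difference −4.86, SE 0.97, limma adjusted p = 0.012). The call of Spp1 was lost without day 8 mouse 1 (adjusted p = 0.093) and without day 14 mouse 3 (adjusted p = 0.091). Mfge8, the milk fat globule protein lactadherin, went from 1478, 1240 and 1124 CPM to 3359, 2309 and 2131 CPM. The log2 difference was 1.0 (SE 0.24, limma adjusted p = 0.049), and the call was lost when any 1 of the 6 mice was left out (adjusted p from 0.054 without day 14 mouse 2 to 0.35 without day 14 mouse 1).

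Several abundant milk genes separated the days without passing the test. Glycam1, a mucin-like milk protein, stood at 12315, 13521 and 12509 CPM on day 8 and 6083, 3517 and 2912 CPM on day 14 (log2 difference −1.69, SE 0.43, limma adjusted p = 0.063). Trf, transferrin, carries iron in blood and milk and stood at 23593, 18047 and 17866 CPM against 45866, 41569 and 34955 CPM (1.04, SE 0.33, adjusted p = 0.17). Cel, the lipase that digests milk fat in the pup, stood at 1184, 673 and 660 CPM against 422, 405 and 348 CPM (−1.05, SE 0.32, adjusted p = 0.15). In all 3 genes the days did not overlap. Csn2, the beta-casein and most abundant transcript, stood at 277820, 263646 and 288309 CPM against 247284, 279598 and 311907 CPM, and its days overlapped (0.01, SE 0.38, adjusted p = 1).

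As shares of the milk protein counts of each mouse, Csn2 took 37.4% ± 2.18 on day 8 and 39.7% ± 3.75 on day 14 (SD, n = 3), with overlap. Wap, the whey acidic protein, took 11.8%, 13.7% and 12.3% and then 8.97%, 10.9% and 9.77%, without overlap. Trf took 3.33%, 2.40% and 2.36% and then 7.12%, 5.47% and 4.92%, without overlap. Glycam1 took 1.74%, 1.79% and 1.65% and then 0.94%, 0.46% and 0.41%. Lalba, the partner that makes galactosyltransferase produce lactose, took 0.12%, 0.0913% and 0.0757% and then 0.18%, 0.14% and 0.15%. The days did not overlap for Glycam1 or Lalba either. For Wap, Trf, Glycam1 and Lalba the exact permutation p of the share was 0.1, the smallest this design allows, so no share could pass a threshold of 0.05.

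**Figure D1:**
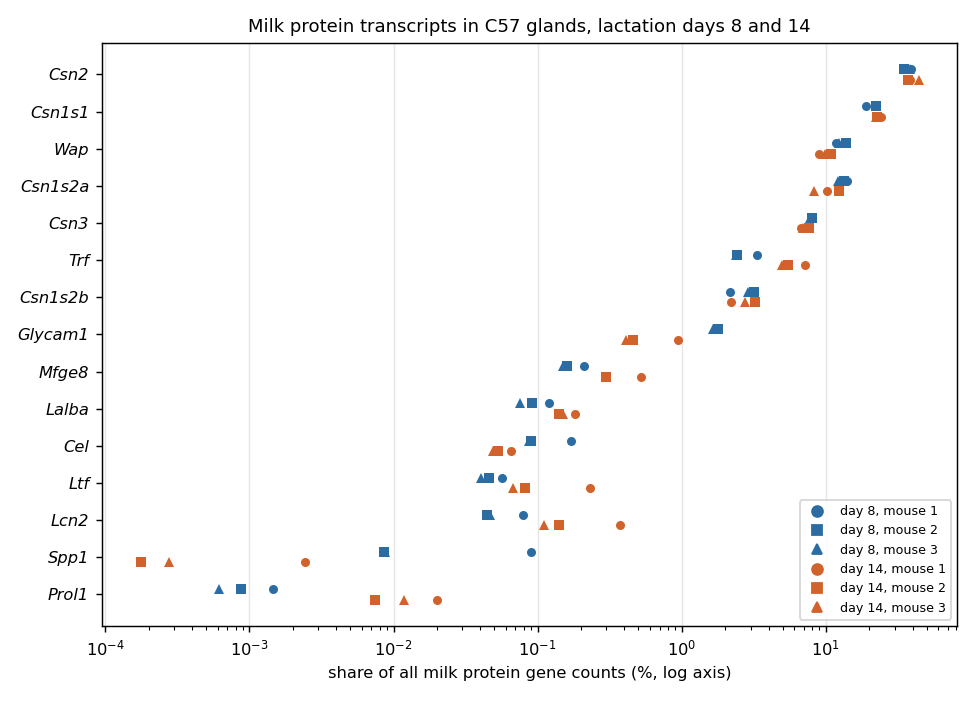
Share of each of 15 milk protein genes in the milk protein counts of a gland (percent, log axis), with 1 point for each mouse. Trf, Mfge8, Lcn2 and Prol1 lie to the right on day 14, and Wap, Glycam1, Cel and Spp1 lie to the left. The days overlap for Csn2, with all mice between 35.0% and 43.9%.

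Because milk proteins fill the table, all other genes are given in CPM of the reads outside the 19 milk protein genes (non-milk CPM), and log2 differences are of non-milk CPM + 1. On that scale 16143 genes were tested, of which 241 (1.49%) rose and 110 (0.681%) fell in limma with Benjamini-Hochberg adjustment. Of these, 103 and 33 were also called on the scale of all reads, and no gene was called in opposite directions. The median difference over all genes was 0.13 on the non-milk scale and −0.01 after a trimmed-mean scaling, which called 158 higher and 208 lower, so 68.7% of calls were higher on the first scale and 43.2% on the second. Of the 241 and 110 calls, 154 and 106 were shared with the trimmed-mean scaling and none changed sign. Of the 241 higher calls, 82 were still called without day 8 mouse 2, 88 without day 14 mouse 1, 111 without day 14 mouse 3 and 113 without day 8 mouse 3, against 146 without day 8 mouse 1 and 188 without day 14 mouse 2. Of the 110 lower calls, 39 were still called without day 14 mouse 3, 47 without each of day 8 mice 2 and 3 and day 14 mouse 1, 57 without day 8 mouse 1 and 77 without day 14 mouse 2. All 241 higher calls and 109 of the 110 lower calls had no overlap between the days, as had 4011 of all 16143 genes.

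The largest increase was in Wfdc2, a small secreted protein with the whey acidic protein fold (chromosome 2, 164562413 to 164568510). It stood at 1.18, 0 and 0.37 non-milk CPM on day 8 and at 138, 18.0 and 51.1 on day 14. Day 14 mouse 1 was the highest and all day 14 mice lay above all day 8 mice (log2 difference 5.16, SE 0.77, limma adjusted p = 0.00069). Tgfb2, a ligand of the TGF-beta family, went from 32.9, 3.34 and 6.96 to 130, 81.4 and 77.7 non-milk CPM (3.17, SE 0.57, adjusted p = 0.0034). Its receptor subunit Tgfbr2 went from 253, 227 and 261 to 501, 514 and 575 (1.10, SE 0.18, adjusted p = 0.0018). In both genes the days were apart, and both kept the call without each of the 6 mice. Among 15 tested genes of TGF-beta ligands, receptors and antagonists, these 2 rose and Chrdl2 fell, with a median of 0.24. Over all genes 1.49% rose and 0.681% fell, and this list was drawn up after the results had been seen. Gdpd2, a glycerophosphodiester phosphodiesterase, rose by 3.42 (SE 0.47, adjusted p = 0.00027) and Tnfrsf19, a receptor of the TNF receptor family, by 2.84 (SE 0.45, adjusted p = 0.0012).

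Several other large increases lost their call with 1 mouse left out. Cldn4, a claudin of tight junctions, stood at 4.13, 3.44 and 1.86 non-milk CPM on day 8 and at 152, 24.2 and 123 on day 14, with no overlap (4.28, SE 1.03, limma adjusted p = 0.027). It kept the call only without day 14 mouse 2, and without day 14 mouse 1 the adjusted p was 0.14. Cdhr1, a cadherin-related protein, rose by 3.44 (SE 0.78, adjusted p = 0.020) and Chil1, a secreted chitinase-like protein, by 3.41 (SE 0.70, adjusted p = 0.0095). Both calls were lost without day 14 mouse 1 (adjusted p = 0.14 and 0.080), day 8 mouse 2 (0.13 and 0.066) or day 8 mouse 3 (0.084 and 0.058). S100a8, a subunit of the neutrophil protein calprotectin, stood at 0.51, 0.61 and 0 on day 8 and 57.5, 6.56 and 4.55 on day 14 (3.33, SE 0.85, adjusted p = 0.039). Its call was lost without day 14 mouse 1 (adjusted p = 0.25) and without any day 8 mouse (up to 0.15). S100a8 is itself among the 12 neutrophil markers, whose sum of 105 in that day 14 mouse holds its 57.5. S100a9 stood at 0, 0 and 0 on day 8 and 0.15, 0 and 0 on day 14. The part of neutrophils in this difference was not tested. Gstp2 (3.47, SE 0.66, adjusted p = 0.0054), a glutathione transferase, and Mup10 (3.05, SE 0.73, adjusted p = 0.026), a major urinary protein, have close copies with which reads can be shared, so both values are uncertain. Gstp2 kept its call without each mouse. On the scale of all reads the calls of Cldn4 (adjusted p = 0.09), Cdhr1 (0.079), Chil1 (0.063), S100a8 (0.2), Gstp2 (0.063) and Mup10 (0.086) were lost. Mup10 lost its call without day 14 mouse 1 (adjusted p = 0.14) and without each of 4 other mice, and kept it without day 14 mouse 2.

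**Figure D2:**
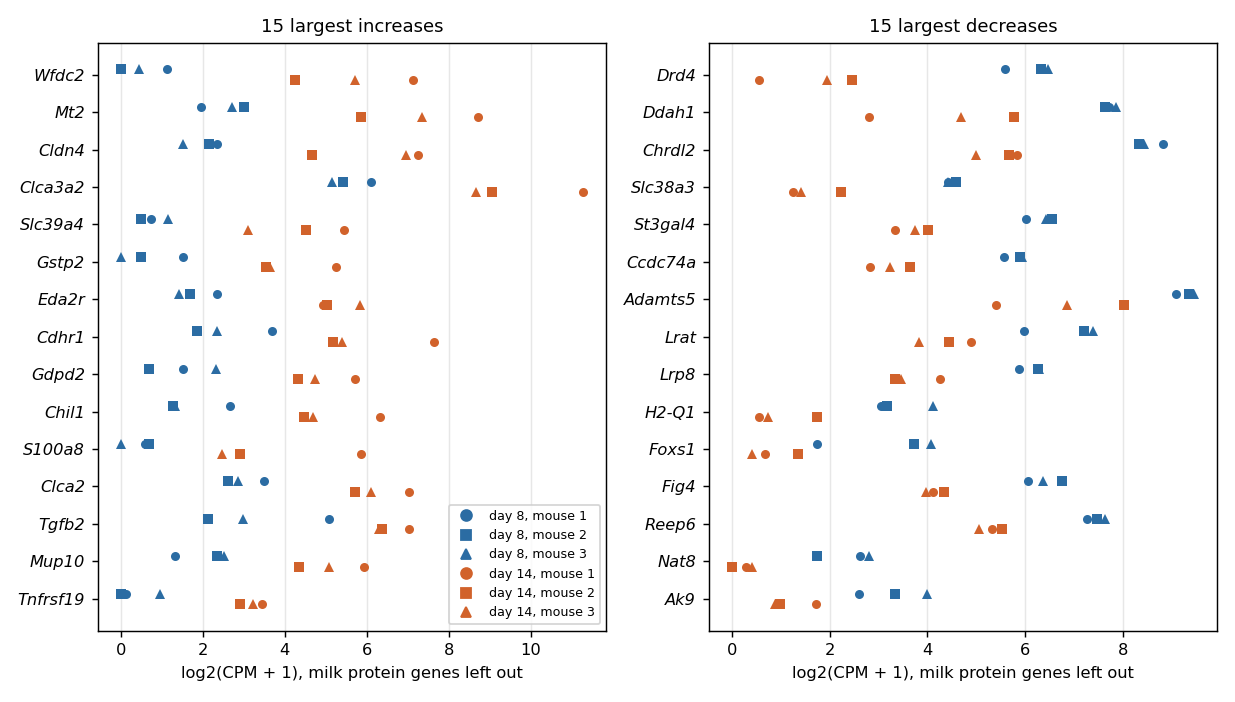
Level of the 15 genes with the largest increases (left) and the 15 with the largest decreases (right) in each of the 6 mice, as log2 of non-milk CPM + 1. In every gene shown the 3 day 14 mice lie on one side of the 3 day 8 mice, and day 14 mouse 1 is the farthest out in genes such as Wfdc2, Mt2, Clca3a2 and Ddah1.

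Metal-binding and zinc transport genes were among the increases. Metallothioneins are small cysteine-rich proteins that bind zinc and copper, and their genes respond to zinc through the factor MTF1. Mt2 stood at 2.86, 7.09 and 5.57 non-milk CPM on day 8 and at 422, 57.2 and 161 on day 14 (4.75, SE 0.84, limma adjusted p = 0.0031). Mt1 stood at 113, 177 and 157 on day 8 and at 1504, 365 and 607 on day 14 (2.24, SE 0.53, adjusted p = 0.026). In both genes the days were apart and day 14 mouse 1 was the highest. Mt2 kept its call without each mouse, while Mt1 kept it only without day 14 mouse 2 and reached an adjusted p of 0.18 without day 14 mouse 1. Slc30a1, which exports zinc from cells, went from 21.1, 15.2 and 16.9 to 56.1, 62.1 and 48.1 (1.60, SE 0.22, adjusted p = 2.7e-04). Its 3 day 14 mice lay close together, and the call held without each mouse. Slc39a4, a zinc importer, went from 0.67, 0.41 and 1.21 to 42.4, 22.1 and 7.67 (3.57, SE 0.76, adjusted p = 0.012), and lost the call without day 8 mouse 2 (adjusted p = 0.068) or day 14 mouse 1 (0.089). On the scale of all reads Mt2 and Slc30a1 were called, and Mt1 (adjusted p = 0.059) and Slc39a4 (0.074) were not. These 4 genes were the only calls among 23 tested metallothionein and zinc transporter genes, whose median was 0.02, beside 1.49% of all genes called higher. That list was drawn up after the results had been seen. Slc30a2, which loads zinc into milk, stood at 51.5, 57.5 and 50.4 on day 8 and 65.9, 59.5 and 59.3 on day 14 (0.21, SE 0.25, adjusted p = 0.76).

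The 250 bases before the RefSeq start of 3 of these genes are shown, and any part of a shared element in the increases was not tested. Capitals mark the core of the metal response element, TGCACNC or TGCGCNC, searched on both strands. The windows are chr8:94178839-94179088 (Mt1), chr8:94172368-94172617 (Mt2) and chr1:191906531-191906780 (Slc30a1), all on the plus strand of GRCm38.p6, and Slc39a4 had no entry in the table used.
Mt1: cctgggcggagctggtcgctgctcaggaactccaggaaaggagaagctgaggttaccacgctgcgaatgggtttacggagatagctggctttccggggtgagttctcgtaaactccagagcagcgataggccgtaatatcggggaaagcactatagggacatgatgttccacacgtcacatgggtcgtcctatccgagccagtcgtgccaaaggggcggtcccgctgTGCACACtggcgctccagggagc
Mt2: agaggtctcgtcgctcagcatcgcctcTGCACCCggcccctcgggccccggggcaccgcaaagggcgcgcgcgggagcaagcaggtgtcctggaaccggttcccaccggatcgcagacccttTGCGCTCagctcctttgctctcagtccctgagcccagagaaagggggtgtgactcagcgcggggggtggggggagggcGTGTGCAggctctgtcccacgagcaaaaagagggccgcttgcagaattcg
Slc30a1: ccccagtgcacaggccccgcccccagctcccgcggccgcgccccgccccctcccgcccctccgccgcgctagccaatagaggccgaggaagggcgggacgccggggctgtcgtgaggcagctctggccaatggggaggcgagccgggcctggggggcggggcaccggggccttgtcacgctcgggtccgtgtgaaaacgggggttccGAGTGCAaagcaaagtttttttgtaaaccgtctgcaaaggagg
The core occurred 1 time in the Mt1 window, 3 times in the Mt2 window and 1 time in the Slc30a1 window. Of 32851 promoter windows of this length, 21.4% held 1 or more and 1.26% held 3 or more. A match is a run of letters in this window and was not measured as a bound site. Bases after the RefSeq start were not searched, so these counts do not rank the genes by their number of elements.

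Genes known as targets of p53, the transcription factor of the DNA damage response, were among the increases. Of 24 tested, 8 rose and none fell, with 21 of 24 above 0 and a median of 0.68, beside 1.49% of all genes called higher, 65.1% above 0 and a median of 0.13. On the scale of all reads 3 of the 8 were called (Eda2r, Zmat3 and Ccng1), and the adjusted p of the others was 0.054 (Sesn2), 0.069 (Trp53inp1), 0.076 (Bax), 0.1 (Btg2) and 0.18 (Polk). The list was drawn up after these results had been seen, so the count is a description. Eda2r, a receptor for ectodysplasin A2, stood at 4.13, 2.23 and 1.67 non-milk CPM on day 8 and at 29.4, 31.5 and 56.3 on day 14 (3.44, SE 0.46, limma adjusted p = 0.00023). Zmat3, an RNA-binding zinc finger protein, went from 76.0, 59.3 and 71.6 to 157, 199 and 177 (1.36, SE 0.23, adjusted p = 0.0021). The days were apart in both genes, and both kept the call without each mouse. Ccng1, cyclin G1, went from 152, 131 and 168 to 317, 430 and 467 (1.41, SE 0.29, adjusted p = 0.010), and lost the call without day 8 mouse 2 (adjusted p = 0.069) or day 14 mouse 3 (0.067). Bax, which permeabilises mitochondria in apoptosis, went from 8.34, 7.70 and 9.75 to 26.6, 16.6 and 26.9 (1.32, SE 0.29, adjusted p = 0.016). Trp53inp1, a stress-induced nuclear protein, went from 365, 330 and 436 to 2427, 720 and 1770 (1.96, SE 0.46, adjusted p = 0.025). Btg2 (1.49), Polk (1.07) and Sesn2 (1.04) made up the rest. Btg2, Polk and Trp53inp1 kept the call only without day 14 mouse 2, Sesn2 only without day 8 mouse 1, and Bax without day 14 mouse 2 or day 8 mouse 3. With the other mice left out in turn, their adjusted p reached 0.25 (Btg2), 0.2 (Polk), 0.16 (Trp53inp1), 0.17 (Sesn2) and 0.091 (Bax).

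Of 4 tested genes of the Clca family, secreted or membrane proteins linked to chloride conductance, 3 rose, beside 1.49% of all genes. This list too was drawn up after the results had been seen. Clca3a2 stood at 68.0, 42.0 and 34.6 non-milk CPM on day 8 and at 2493, 532 and 404 on day 14, highest in mouse 1. The difference was 4.10 (SE 0.80, limma adjusted p = 0.0067), and 0.061 was the adjusted p without that mouse. Clca3a1 rose by 2.40 (SE 0.48, adjusted p = 0.0082), a call lost without day 14 mouse 1 (0.071) or day 8 mouse 2 (0.057). These neighbours are close copies and may share reads. Clca2 went from 10.3, 5.16 and 6.31 to 129, 51.8 and 67.5 (3.29, SE 0.45, adjusted p = 0.00025) and kept the call without each mouse. Clca1, which did not pass, was read in day 14 mouse 2 alone, at 0.20.

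The largest decrease was in Drd4, a dopamine receptor (chromosome 7, 141292006 to 141296464). It stood at 47.1, 79.4 and 87.7 non-milk CPM on day 8 and at 0.46, 4.50 and 2.86 on day 14 (−4.48, SE 0.48, limma adjusted p = 2e-05). St3gal4, which adds sialic acid to galactose (chromosome 9, 35046576 to 35119268), went from 63.3, 92.2 and 85.3 to 9.03, 15.1 and 12.4 (−2.64, SE 0.27, adjusted p = 1.5e-05). Fig4, a phosphoinositide phosphatase of endosomes and lysosomes (chromosome 10, 41188172 to 41303260), went from 65.9, 107 and 81.5 to 16.4, 19.1 and 14.7 (−2.25, SE 0.23, adjusted p = 1.5e-05). In these 3 genes the day 8 mice lay well above the day 14 mice, and the calls held without each mouse. Of 15 tested genes of sialic acid transfer and supply, St3gal4 was the only call, with a median of 0.18. Chrdl2, an antagonist of bone morphogenetic proteins, went from 449, 321 and 341 to 55.5, 49.9 and 31.0 (−3.02, SE 0.37, adjusted p = 0.00011). Slc38a3, a glutamine transporter, went from 20.5, 23.0 and 20.4 to 1.37, 3.72 and 1.68 (−2.84, SE 0.55, adjusted p = 0.0065).

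Reep6 (−2.15, SE 0.29), Ccdc74a (−2.57, SE 0.38) and Ak9 (−2.11, SE 0.37), an adenylate kinase, also fell and kept their calls without each mouse, with limma adjusted p of 0.00023, 0.00063 and 0.0028. Ddah1, which breaks down an inhibitor of nitric oxide synthase, went from 209, 196 and 229 to 5.99, 53.7 and 24.7 (−3.31, SE 0.66, adjusted p = 0.0078), with an adjusted p of 0.068 without day 14 mouse 1. Adamts5, a protease of the extracellular matrix, fell by 2.54 (SE 0.55, adjusted p = 0.014), a call lost without day 14 mouse 1 (0.11), day 14 mouse 3 (0.053), day 8 mouse 2 (0.066) or day 8 mouse 3 (0.066). Lrp8, a receptor for apolipoprotein E and reelin, fell by 2.45 (SE 0.56, adjusted p = 0.020), with adjusted p from 0.068 to 0.097 without day 8 mice 2 or 3 or day 14 mice 2 or 3. Foxs1, a forkhead factor, fell by 2.36 (SE 0.46, adjusted p = 0.0067) and lost the call without day 8 mouse 2 (0.058) or 3 (0.060). H2-Q1 (−2.44) and Nat8 (−2.14) were low in level and have close copies, so their values are uncertain. Lrp8 (adjusted p = 0.098) and Nat8 (0.079) were not called on the scale of all reads.

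Polyamine and retinoid genes moved in both directions. Odc1, ornithine decarboxylase and the first enzyme of polyamine synthesis, went from 184, 202 and 203 to 39.0, 79.2 and 39.7 non-milk CPM (−1.96, SE 0.25, limma adjusted p = 1.8e-04), and held without each mouse. Sat1, which acetylates polyamines for breakdown and export, went from 28.4, 39.6 and 39.7 to 128, 70.5 and 107 (1.45, SE 0.36, adjusted p = 0.033). Its call was kept only without day 14 mouse 2, and was lost on the scale of all reads (adjusted p = 0.1). Lrat, which esterifies retinol for storage, went from 62.1, 146 and 166 to 28.8, 20.6 and 13.1 (−2.47, SE 0.49, adjusted p = 0.0077), with adjusted p of 0.055, 0.056 and 0.059 without day 8 mouse 2, day 8 mouse 3 and day 14 mouse 3. Of 14 tested genes on this list, drawn up after the results had been seen, 1 rose and 2 fell, beside 1.49% and 0.681% of all genes.

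Genes of milk fat and fatty acid synthesis gave 2 decreases among 32 tested, beside 0.681% of all genes called lower. Their median was −0.12 (0.04 on the scale of all reads) against 0.13 for all genes. Srebf1, the transcription factor that drives fatty acid synthesis, went from 535, 337 and 355 to 211, 166 and 113 non-milk CPM (−1.33, SE 0.31, limma adjusted p = 0.020). Its call was lost without day 14 mouse 3 (adjusted p = 0.14) or any day 8 mouse (0.05 to 0.11), and on the scale of all reads (0.14). Slc25a1, the mitochondrial citrate carrier that supplies carbon for fat, went from 961, 1077 and 1138 to 375, 396 and 256 (−1.65, SE 0.33, adjusted p = 0.0077), with an adjusted p of 0.061 without day 14 mouse 3. Scd1, the desaturase that makes monounsaturated fatty acids, stood at 37438, 30967 and 33484 on day 8 and 14769, 15143 and 10379 on day 14, but did not pass (−1.35, SE 0.48, adjusted p = 0.16). Fasn, fatty acid synthase, overlapped between the days (−0.22, adjusted p = 0.86). Btn1a1 and Xdh, coat proteins of the milk fat globule, were each at 0.59 (adjusted p = 0.35 and 0.22), with the day 14 mice above the day 8 mice.

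Of 24 cholesterol synthesis genes 16 lay above 0, near the 65.1% of all genes, and their median was 0.48. Of the 24, 2 rose, beside 1.49% of all genes. They were Cyp51 (67.5, 55.1 and 62.7 to 156, 105 and 109 non-milk CPM, 0.97, SE 0.20, limma adjusted p = 0.0088) and Msmo1 (0.91, SE 0.22, adjusted p = 0.026), enzymes that remove methyl groups from the sterol skeleton. Day 14 mouse 1 was the highest in both, and without it the adjusted p was 0.078 and 0.19. The Cyp51 call was also lost without day 8 mouse 2 (0.065), and that of Msmo1 without any day 8 mouse (up to 0.16). Neither was called on the scale of all reads (0.078 and 0.14). None of 15 lactose and glucose genes was called, with B4galt1 at 0.37 (adjusted p = 0.58) and the glucose transporter Slc2a1 at −0.04 (adjusted p = 0.97). None of 21 ion and micronutrient transport genes was called, with the water channel Aqp3 at −1.57 (adjusted p = 0.065) and Atp2b2, the calcium pump of milk secretion, at −0.28 (adjusted p = 0.81). Of 17 amino acid transporters, Slc38a3 and Slc38a10 (−0.85, SE 0.22, adjusted p = 0.040) fell, beside 0.681% of all genes. Slc38a10 kept its call only without day 14 mouse 2 (0.072 to 0.18 otherwise), losing it on the scale of all reads (0.17).

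Hormone signalling genes included Stat5a, the main transducer of prolactin, which went from 513, 359 and 379 to 202, 216 and 154 non-milk CPM (−1.12, SE 0.23, limma adjusted p = 0.0095). The days were apart, and the adjusted p was 0.065 without day 8 mouse 1, 0.074 without day 14 mouse 3 and 0.1 on the scale of all reads. It was the only call among 15 genes of prolactin and STAT5 signalling. The prolactin receptor Prlr (−0.52, adjusted p = 0.65) and the lineage factor Elf5 (−0.03, adjusted p = 0.98) did not pass. Pthlh encodes the hormone by which the lactating gland draws calcium from bone, and it went from 30.8, 32.6 and 31.1 to 85.1, 134 and 114 (1.76, SE 0.33, adjusted p = 0.0054). Vdr, the vitamin D receptor, went from 664, 632 and 650 to 227, 165 and 206 (−1.71, SE 0.32, adjusted p = 0.0054). Both held without each mouse, but on the scale of all reads Pthlh was called and Vdr was not (adjusted p = 0.057). They were among 8 tested genes of serotonin, parathyroid hormone-related and calcium signalling. Over all genes 1.49% rose and 0.681% fell. None of 15 IGF and insulin genes was called.

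The secretory pathway and organelles showed few calls, which stand beside 1.49% of all genes called higher and 0.681% called lower. Of 37 Golgi and trafficking genes, Golgb1, the Golgi tether giantin, rose (0.56, SE 0.13, limma adjusted p = 0.023), and Sec61b and Ssr4, parts of the translocon that brings new proteins into the endoplasmic reticulum, fell (−0.92, SE 0.23, adjusted p = 0.034, and −1.06, SE 0.27, adjusted p = 0.043). Golgb1 and Ssr4 kept the call only without day 14 mouse 2, and Sec61b without day 14 mouse 1 or 2 (adjusted p otherwise up to 0.11, 0.22 and 0.21). None of the 3 was called on the scale of all reads (0.12, 0.053 and 0.26, in the same order), nor was Sesn2. Of 31 genes of the unfolded protein response, Fkbp11, a folding enzyme of the endoplasmic reticulum, went from 107, 101 and 108 to 31.3, 47.1 and 36.6 non-milk CPM (−1.46, SE 0.25, adjusted p = 0.0024) and held without each mouse. Hspa5, the chaperone BiP, stood at 0.27 (adjusted p = 0.55) and Xbp1 at 0.48 (adjusted p = 0.32). On the non-milk scale Sesn2 was the only call among 22 genes of the integrated stress response, with Atf4 at −0.03 (adjusted p = 0.97). Wipi1, which acts in autophagosome formation, was the only call among 22 autophagy genes (0.88, SE 0.18, adjusted p = 0.0095; 0.061 without day 8 mouse 2).

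Energy and ribosome genes gave 1 call, a decrease, beside 0.681% of all genes called lower. None of 47 nuclear genes of oxidative phosphorylation, 13 mitochondrially encoded genes, 25 fatty acid oxidation genes, 31 mitochondrial ribosome genes or 32 lysosome genes passed. Dlat, a subunit of pyruvate dehydrogenase, fell among 31 genes of glycolysis and the citric acid cycle (−1.11, SE 0.25, limma adjusted p = 0.017), a call lost without day 8 mouse 2 or 3 or day 14 mouse 1 or 3 (0.074 to 0.1) and on the scale of all reads (0.053). Although none was called, 43 of 47 oxidative phosphorylation genes and 47 of 49 cytosolic ribosome protein genes lay below 0, beside 34.9% of all genes, with medians of −0.29 and −0.47. Ribosomal protein genes held 0.82%, 0.91% and 0.80% of non-milk counts on day 8 and 0.58%, 0.75% and 0.48% on day 14, without overlap (exact permutation p = 0.1, the smallest possible). In the NZB glands the medians of these 2 lists were 0.01 and 0.08.

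**Figure D3:**
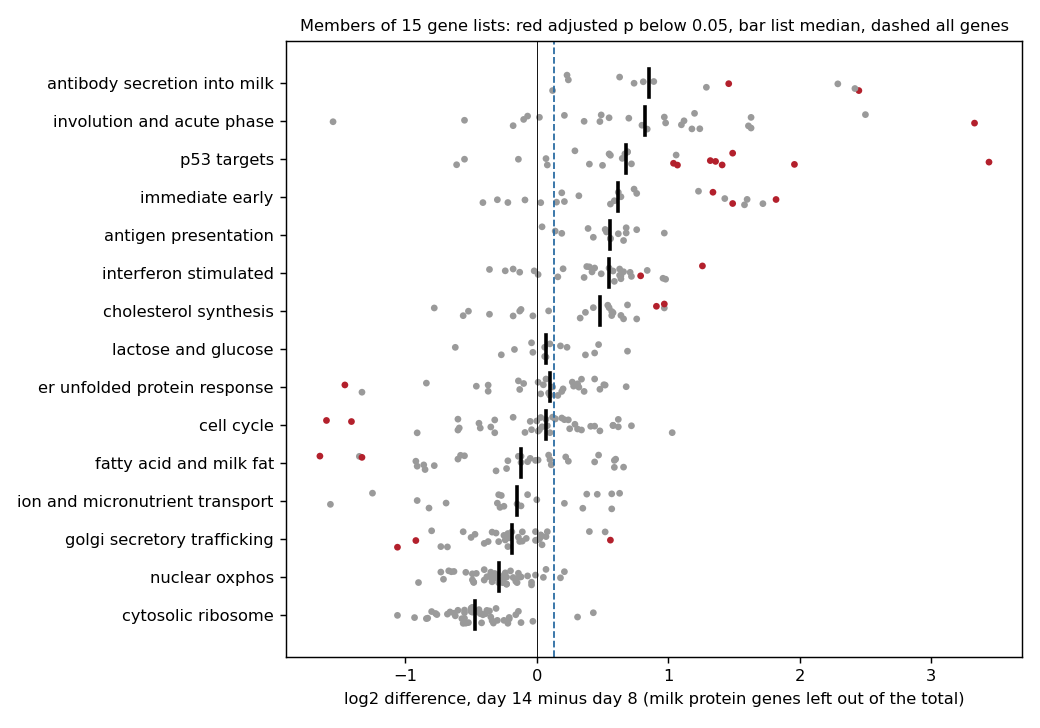
Log2 difference (day 14 less day 8, non-milk scale) of each tested member of 15 gene lists, with red points for members at an adjusted p below 0.05, a black bar for the list median and a dashed line for the median of all genes (0.13). Milk protein genes on these lists, such as Lcn2, are on the scale of all reads. Medians run from 0.85 for antibody secretion to −0.47 for the cytosolic ribosome, and p53 targets hold 8 red points.

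Of 12 tested genes of antibody transfer into milk, 2 rose, beside 1.49% of all genes. All 12 lay above 0, beside 65.1% of all genes, with a median of 0.85. The summed level of plasma cell markers, which shares genes with this list, was 925 to 1128 non-milk CPM on day 8 and 1427 to 1567 on day 14, and its part in these differences was not tested. Jchain, the joining chain of secreted IgA, went from 32.8, 59.7 and 50.7 to 237, 283 and 254 non-milk CPM (2.45, SE 0.59, limma adjusted p = 0.027). All day 14 mice were above all day 8 mice and close to each other, but the adjusted p was 0.069 to 0.11 when any 1 mouse was left out. Jchain is also a plasma cell marker, but most of the plasma cell sum came from other markers on both days. Of 10 tested plasma cell markers, 7 lay above 0 and 3 below, and Fkbp11 among them was called lower. Prdm1, a factor of plasma cell differentiation, rose by 1.46 (SE 0.35, adjusted p = 0.026) and kept the call only without day 14 mouse 2 (adjusted p up to 0.14 otherwise, and 0.1 on the scale of all reads). Igha, the IgA heavy chain, stood at 145, 340 and 276 on day 8 and 1222, 1337 and 1306 on day 14 (2.42, SE 0.70, adjusted p = 0.074). Pigr, the receptor that carries IgA across the epithelium, stood at 2282, 2268 and 2207 and then 3341, 4363 and 3647 (0.74, SE 0.26, adjusted p = 0.16). Jchain, Igha and Pigr were highest in day 14 mouse 2 and Prdm1 in day 14 mouse 1.

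Among immune and stress genes, chemokines Cxcl1 (2.78, SE 0.49, limma adjusted p = 0.0031), Cxcl2 (2.73, SE 0.60, adjusted p = 0.016) and Cxcl17 (1.99, SE 0.52, adjusted p = 0.044) rose, 3 of 26 tested, beside 1.49% of all genes. The chemokine list was drawn up after the results had been seen. Cxcl1, which attracts neutrophils, went from 5.22, 1.22 and 4.55 to 67.1, 13.5 and 24.1 non-milk CPM and held without each mouse. Cxcl2 and Cxcl17 reached adjusted p of 0.11 and 0.18 without day 14 mouse 1, and also lost the call without day 8 mice 1 and 3 and day 14 mouse 3, as Cxcl17 did without day 8 mouse 2. On the scale of all reads Cxcl1 was called, and Cxcl2 (0.1) and Cxcl17 (0.16) were not. Of 23 immediate early genes, which respond within minutes to stimuli, Fos (1.82, SE 0.41, adjusted p = 0.020), Btg2 and Klf6 (1.34, SE 0.35, adjusted p = 0.047) rose, and all 3 were lost without day 14 mouse 1 (0.12, 0.13 and 0.23) or 3 (0.091, 0.25 and 0.21) and without day 8 mouse 3 (0.077, 0.16 and 0.15). Fos and Btg2 were also lost without day 8 mouse 1 (0.088 and 0.14), and Btg2 and Klf6 without day 8 mouse 2 (0.1 and 0.24). None of the 3 was called on the scale of all reads (0.059 for Fos, 0.1 for Btg2 and 0.14 for Klf6). S100a8 was the only call among 26 genes of involution and the acute phase, of which 21 lay above 0, with a median of 0.82. Some were high mainly in day 14 mouse 1, such as Saa3 (54.1 there, 5.68 and 7.16 in day 14 mice 2 and 3) and Lrg1 (442, then 26.6 and 47.3). Others were not, such as Cp (371 there, then 655 and 613). Lcn2 and Ltf on this list were taken on the scale of all reads. Rsad2 (1.26, adjusted p = 0.025) and Ifih1 (0.79, adjusted p = 0.036) rose among 29 interferon-stimulated genes, and both were lost without day 14 mouse 1 (both 0.16), day 14 mouse 3 (0.08 and 0.13), day 8 mouse 2 (0.12 and 0.17) or day 8 mouse 3 (0.078 and 0.2), as Rsad2 was without day 8 mouse 1 (0.069). Their adjusted p was 0.099 and 0.18 on the scale of all reads. All 15 antigen presentation genes were above 0, beside 65.1% of all genes, with a median of 0.56 and no call. Marker lists of immune cells stood above the median of all genes as well, at 0.75 for B cells, 0.62 for T and NK cells and 0.49 for macrophages. Their summed levels overlapped between the days and were highest in day 14 mouse 1, and their part in these differences was not tested.

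Few calls fell in the cell cycle, clock, junction and matrix lists. Over all genes 1.49% were called higher and 0.681% lower. Mki67, the marker of cycling cells, went from 238, 249 and 248 to 56.0, 111 and 82.8 non-milk CPM (−1.60, SE 0.41, limma adjusted p = 0.043), and Ccnd1, cyclin D1, from 95.2, 43.3 and 43.0 to 19.6, 27.3 and 16.3 (−1.41, SE 0.34, adjusted p = 0.026). Without day 14 mouse 1 the adjusted p was 0.21 and 0.1, and both were also lost without day 14 mouse 3 (0.12 and 0.14) or day 8 mouse 1 (0.1 and 0.16), as Mki67 was without day 8 mouse 2 (0.16) or 3 (0.13). The adjusted p on the scale of all reads was 0.1 for Mki67 and 0.15 for Ccnd1. The other 40 of the 42 cell cycle genes were not called, Top2a among them (0.44, adjusted p = 0.60), and the list median was 0.07. Rora, a clock regulator, fell (−0.90, SE 0.20, adjusted p = 0.017; lost without day 8 mouse 2 or 3 or day 14 mouse 2 or 3, up to 0.088), and Per1 stood at −0.62 (adjusted p = 0.19). The hour of collection is not given in the sources used here. F11r, a junctional adhesion molecule, rose with Cldn4 among 16 junction genes (0.85, SE 0.22, adjusted p = 0.043; 0.069 to 0.19 without any 1 mouse). Tnc, the matrix protein tenascin C, fell among 35 matrix genes (−1.30, SE 0.27, adjusted p = 0.012; 0.060, 0.052 and 0.069 without day 8 mouse 1, day 8 mouse 2 and day 14 mouse 3). Rora (0.28), F11r (0.1), Cldn4 (0.09) and Tnc (0.17) were not called on the scale of all reads.

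Marker lists of cell types held few calls, beside 1.49% of all genes called higher and 0.681% lower, but several had medians above the 0.13 of all genes. The median was 0.75 for B cell (13 of 13 above 0), 0.65 for plasma cell, 0.64 for red blood cell, 0.62 for T and NK cell, 0.56 for luminal secretory and 0.49 for macrophage markers. Red blood cell markers summed to 213, 475 and 411 non-milk CPM on day 8 and 830, 456 and 445 on day 14. Like the sums for B cells, T and NK cells and macrophages, this sum overlapped between the days and was highest in day 14 mouse 1. Cx3cr1, a macrophage receptor, rose among 16 macrophage markers (1.18, SE 0.31, limma adjusted p = 0.043; 0.055 to 0.22 without any 1 mouse, 0.15 on the scale of all reads). S100a8 rose among 5 tested neutrophil markers, and Jchain and Prdm1 rose and Fkbp11 fell among 10 plasma cell markers. No marker of luminal secretory, hormone-sensing, myoepithelial, white or brown adipocyte, fibroblast, endothelial, B, T and NK, mast, muscle, skin, red blood or nerve cells was called. The summed level of the luminal secretory markers outside the milk protein genes was 12629 to 13518 non-milk CPM on day 8 and 17004 to 18845 on day 14, without overlap. The myoepithelial markers summed to 1554 to 1735 and 1464 to 1656, with overlap. The part of cell composition in the gene differences was not tested.

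**Figure D4:**
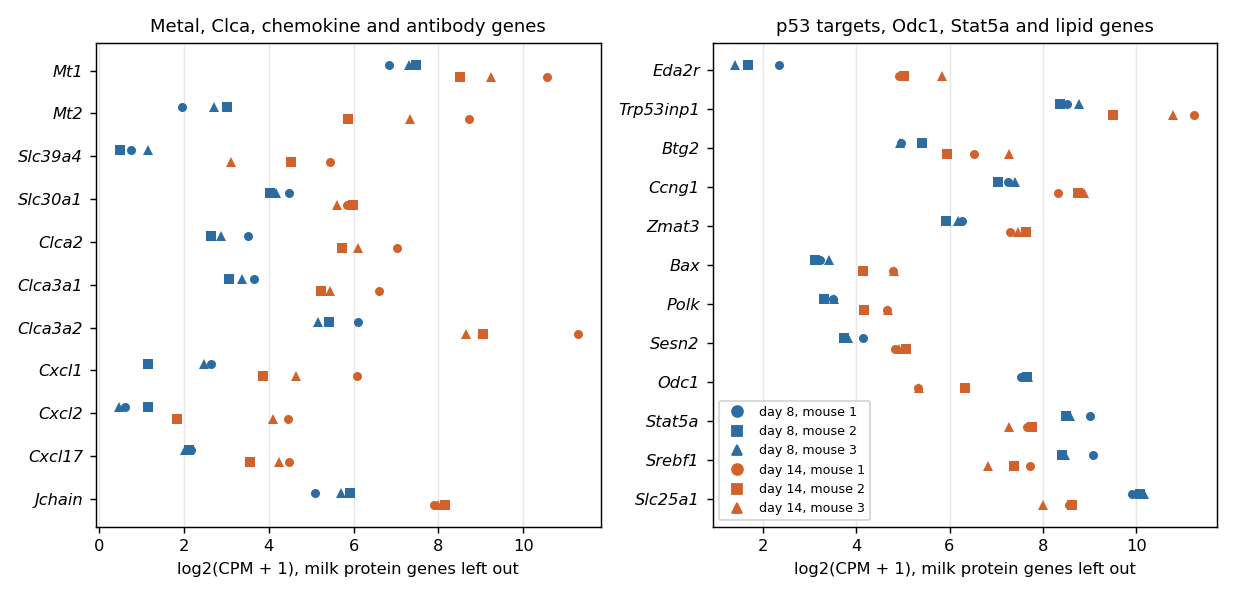
Levels of metal, Clca, chemokine and antibody genes (left) and of p53 targets, Odc1, Stat5a and lipid genes (right) in the 6 mice, as log2 of non-milk CPM + 1. Slc30a1, Zmat3 and Jchain show 3 day 14 mice close together, while Mt1, Mt2 and Clca3a2 are highest in day 14 mouse 1.

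The same interval in NZB glands, which share no mice with the C57 glands, was tested in the same fit. Between days 8 and 14, 78 of 16143 genes (0.483%) were called in NZB, 36 higher and 42 lower. Of the 241 genes that rose in C57, 229 were above 0 in NZB, beside 53.8% of all genes, and 20 were called. Of the 110 that fell in C57, 103 were below 0 in NZB, beside 46.1% of all genes, and 22 were called. The median differences of these genes were 1.28 in C57 and 0.69 in NZB for the increases, and −1.36 and −0.80 for the decreases; the C57 values are those by which the genes were picked. A test of the difference between the genotypes called 0 genes (0%) in limma, with 949 genes at an unadjusted p below 0.05 and a smallest adjusted p of 0.5. Drd4 fell by 3.24 in NZB (adjusted p = 0.0017), St3gal4 by 2.05 (adjusted p = 0.00098), and Eda2r rose by 2.03 (adjusted p = 0.045). Slc30a1 stood at 0.28 in NZB (adjusted p = 0.65), and its difference between genotypes, 1.31 (SE 0.31), had an adjusted p of 0.57.

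**Figure D5:**
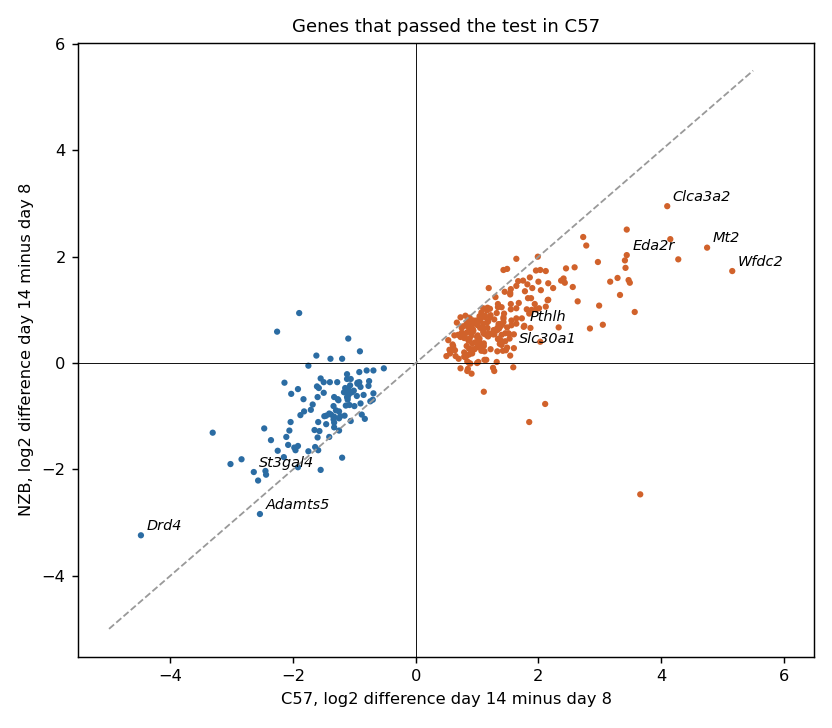
Log2 difference (day 14 less day 8) in C57 (horizontal axis) and NZB (vertical axis) of the genes called in C57, with orange for the 241 increases, blue for the 110 decreases and a dashed line of equal values. Of the increases, 229 lie above 0 in NZB, and of the decreases 103 lie below 0.

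Day 21 of C57 lactation was set beside these values without a test, because a comparison of day 21 with day 8 would use the same day 8 mice. Of the 241 genes that rose by day 14, 240 had a day 21 mean above every day 8 mouse, and all 110 that fell had a day 21 mean below every day 8 mouse. Over all 16143 genes tested the shares were 41.8% above and 16.5% below, and the called genes had been picked on the same day 8 values. Mean levels on days 8, 14 and 21 were 0.52, 68.9 and 52.6 non-milk CPM for Wfdc2, 5.17, 213 and 177 for Mt2, and 71.4, 2.61 and 1.74 for Drd4. Glycam1 stood at 12782, 4171 and 3950 CPM. The milk protein share of day 21 mice 1 to 3 was 61.7%, 75.9% and 73.7%, with mouse 1 the lowest as on day 14.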

How the data were processed

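Polyadenylated RNA of 24 mouse mammary glands was sequenced, per the labels' protocols. The table the authors deposited holds log10 of CPM plus 1 for 32544 symbols in 48 columns, 2 for each sample, as read from the values. The sources used here do not name the aligner, the counting tool or its use of strand, so antisense and overlapping genes cannot be told apart. The submitters' processing notes name GRCm38 and mm10. The 2 columns of a mouse differed in reads by at most 0.33% in the 6 glands and were averaged in CPM as 1 replicate. In C57 non-lactating mouse 2, which enters only the pooled variance, they differed by 138% (mean 7.03 in units of 1000000 reads). The genotype tag of C57 non-lactating mouse 3 reads NZB and its title C57, which was followed. The fits of 12 and 6 mice leave both out. Values were converted to log2(CPM + 1), with the 19 milk protein genes removed and the rest rescaled for the non-milk scale. The 27 symbols that had become dates were kept in the totals.

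The filter kept genes that exceeded 1 CPM in 3 or more libraries. They were fitted with limma 3.58.1 in R 4.3.3, using the eBayes trend option, with a mean for each of the 8 groups over all 24 libraries (16 residual df). Tests were 2-sided, and p-values were adjusted by Benjamini and Hochberg's method at 0.05. Python 3.11.15 with scipy 1.17.1 gave the exact permutation tests. The series text says that 3 mice per group were analysed, so mice are the replicates. On simulated data for this comparison (16143 genes) the fit called 78% of the 100 altered 2-fold, 100% of the 100 altered 4-fold, and 6 unaltered genes among 184 calls. The simulation gave every gene the same dispersion and held no outlying mouse, so these rates belong to that setting and may not hold for the measured genes.

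The named genes were up to 15 largest increases and 15 largest decreases among called genes with no overlap between days and a mean of at least 4 CPM in the higher group, leaving out unnamed gene models, antibody and T cell receptor segments and pseudogenes. Up to 4 members of each list, milk protein genes and a fixed set were also eligible. The comparison, members and lists were chosen with earlier results of these data known, and 7 lists (metals, p53, Clca, sialic acid, TGF-beta, chemokines, polyamines) after the results of this comparison. Gene positions are from GENCODE M21 (GRCm38), matched by symbol (15657 tested symbols found once), and promoter sequences are from RefSeq (GRCm38.p6; 3 of 4 genes matched). Alternatives were other scalings, filters, pseudocounts, fits, columns, and the omission of each mouse.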

Additional observations from a re-analysis of the deposited data

How the results depend on the processing

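Counts of calls depended on the samples in the fit and on the scale. The numbers called higher and lower on the non-milk scale (241 and 110) became 158 and 208 with trimmed-mean scaling, 486 and 220 in a fit of the 12 mice of days 8 and 14, 415 and 176 in a fit of the 6 C57 mice, and 119 and 68 with limma voom on recovered reads. Rescaling without the 5 caseins, Wap, Glycam1 and Lalba alone gave 160 higher. On the scale of all reads (106 and 34) the fit of 12 mice gave 242 and 72, and no filter gave 63 higher. Leaving out 1 mouse gave 82 to 237 higher and 39 to 106 lower on the non-milk scale, and 25 to 170 and 13 to 29 on the scale of all reads. The milk protein share difference was −6.20 to −0.40 points with 1 mouse left out. The genotype difference gave 0 to 1 calls on either scale with 1 mouse left out: Lars2 without day 14 mouse 1 and Rpl10a-ps1 without day 8 mouse 1. No gene named in the text as called changed sign under these settings. For genes without overlap between the days this was fixed in advance when 1 mouse was left out. With the replicate block of mouse numbers 242 were higher and 119 lower (109 and 36 on the scale of all reads). Same-numbered mice of days 8 and 14 correlated at 0.06, 0.08 and 0.09, each mouse best with its own number, and mice of unlike number at −0.06 to −0.03. These are deviations from a mean of 3 mice and sum to 0. Values above 0 for like numbers therefore bring values below 0 for unlike ones. The titles give the numbers without naming pairs, so the main fit did not pair mice by number. Of 75 called genes eligible to be named, 3 are milk protein genes; of the rest 33 stayed called on the scale of all reads and 39 did not. Of the 75, 35 stayed called without day 8 mouse 2, 38 without day 14 mouse 3, 39 without day 14 mouse 1 and 41 with voom. The voom and trimmed-mean settings were chosen after seeing the data, in place of 2 planned count tests that were not run. The cause was not tested.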

Other observations

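Deviations of single mice from their group mean, over the genes tested on the non-milk scale, were compared between C57 days. Between days 14 and 21 mice with the same number correlated at 0.48, 0.41 and 0.05, and mice of unlike number at −0.46 to 0.18. Between days 8 and 14 same-numbered mice correlated at 0.06, 0.08 and 0.09, and between days 8 and 21 at 0.12, 0.01 and −0.09 (−0.18 to 0.20 for unlike numbers of days 8 and 21). Mouse 1 had the lowest milk protein share on each day, 70.9% on day 8, 64.5% on day 14 and 61.7% on day 21. Day 14 mouse 1 was the highest of its group in 117 of the 241 genes that rose, mouse 3 in 82 and mouse 2 in 42.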
